A study of Mus musculus with 4 samples.

Results

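The ATP-binding cassette (ABC) transporter family was examined in endothelial cells (ECs) of the dura mater and of the brain parenchyma. Members were all genes whose symbol begins with Abca, Abcb, Abcc, Abcd, Abce, Abcf or Abcg followed by a digit, which gave 50 of the 23282 symbols counted. The dura mater is the outer membrane around the brain, and the study set out to find differences in gene expression between its ECs and those of the parenchyma. ECs were sorted from C57BL/6J mice 8 weeks of age as CD31+ cells without CD45 and TER-119, and 2 libraries were made for each tissue. Brain ECs were first enriched on magnetic beads through CD31, a step named only for the brain, so this enrichment and the tissue cannot be told apart. The labels list no treatment or mutation in either group. They also do not say whether the 2 libraries of a tissue came from separate mice, so p-values measure the spread between libraries only, which may be technical. Libraries were made with a QuantSeq 3′ kit, which tags the 3′ end of each polyadenylated transcript, and were read as raw counts per gene.

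ABC proteins bind and split ATP, and most members use that energy to move substrates across a membrane. At the blood-brain barrier, pumps on the blood-facing side of ECs return drugs and other lipophilic compounds to the blood, and P-glycoprotein (Abcb1a in mouse), breast cancer resistance protein (Abcg2) and multidrug resistance protein 4 (Abcc4) are the best known of them. Other members export sterols and phospholipids, serve mitochondria, peroxisomes and lysosomes, form part of potassium channels, or act on ribosomes without any membrane part.

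Library totals ran from 13518973 to 16096203 counts, and the family held 79349 and 67517 counts in the brain pair of libraries against 30734 and 36278 in the dura mater pair. The label of the cells was checked on 10 endothelial markers, all of which were counted in each library, at 0.895 to 1.33% of counts. Fibroblast markers (6 genes) summed to 7.38 and 50.7 counts per 1000000 counts (CPM) in brain ECs against 337 and 354 in dura mater ECs, with the defining marker Pdgfra at 0 or 1 count in each library. Lymphatic endothelial markers summed to 123 and 145 CPM against 348 and 572. In brain ECs that sum was almost all Flt4 (123 and 144 CPM), with Prox1, Lyve1 and Ccl21a at 0 counts. In dura mater ECs, Prox1 had 492 and 125 counts and Lyve1 911 and 1776, while Pdpn overlapped between the tissues. Astrocyte markers summed to 0.552 and 0.529 CPM against 166 and 9.98 with Aqp4 at 0. Red-cell markers summed to 17611 and 25437 CPM against 1496 and 752 with Slc4a1 at 0. Mural, leukocyte, oligodendrocyte and neuron markers overlapped between the tissues, and Ptprc, which encodes CD45, had at most 4 counts. The part of these other cells in the results that follow was not tested. Replicates differed widely, with a biological coefficient of variation of 1.39 in the edgeR fit. A replicate often held 64 or more counts of a gene of which the other held 7 or fewer, for 37.5% of the members counted that high in the brain (6 of 16) and 34.8% in the dura mater (8 of 23), beside 31.3% and 30.7% of all symbols.

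The pumps of the blood-brain barrier were at lower levels in dura mater ECs, although 0 of the 20 tested members of the family passed the adjusted threshold of edgeR, beside 0.610% of all tested genes. Abcb1a stood at 3339 and 2718 CPM in the brain pair of libraries against 808 and 836 CPM in the dura mater pair. Its groups did not overlap, and the means were 3029 ± 439 CPM in brain ECs against 822 ± 20.2 in dura mater ECs (SD, n = 2), a 3.68-fold higher level in the brain. The log2 fold change of dura mater over brain was -1.88 (SE 0.28), with an unadjusted p of 0.000454 and an adjusted p of 0.0566 (edgeR quasi-likelihood test, Benjamini-Hochberg over 9347 genes), just outside the threshold of 0.05. Over 15 other settings the log2 fold change of Abcb1a ran from -2.09 to -1.75 and its adjusted p from 1.77e-07 to 0.151, and it passed the threshold in 8 of them, with DESeq2 giving 3.42e-07. The 8 include the fits without brain EC replicate 1 and without brain EC replicate 2, but not those without a dura mater library. In bulk libraries, fewer cells carrying a transcript and less of it per cell cannot be told apart.

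Abcc4, which exports organic anions, nucleotides and conjugates, stood at 718 and 643 CPM in brain ECs against 275 and 166 CPM in dura mater ECs. Both brain libraries lay above both dura mater libraries, with means of 680 ± 53.6 and 220 ± 77.1 CPM (SD, n = 2), 3.09-fold apart. Its log2 fold change was -1.63 (SE 0.42), with an unadjusted p of 0.00753 and an adjusted p of 0.271 (edgeR). Over 15 other settings the adjusted p of Abcc4 ran from 0.0104 to 0.621 and passed in 5, including DESeq2 (0.0167) and the fits without either brain library.

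Abcg2, a short transporter that works as a dimer, stood at 785 and 907 CPM in brain ECs and at 465 and 452 CPM in dura mater ECs. Here too the groups did not overlap, and the means were 846 ± 86.1 and 459 ± 9.50 CPM (SD, n = 2), a 1.85-fold higher level in the brain. The log2 fold change of Abcg2 was -0.88 (SE 0.33), with an unadjusted p of 0.0338 and an adjusted p of 0.466 (edgeR). None of 15 other settings brought it past the threshold, with adjusted p values of 0.114 (DESeq2) to 0.799.

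In the GENCODE M21 annotation of GRCm38, Abcb1a lies on chromosome 5 (8660077 to 8748575, plus strand), Abcg2 on chromosome 6 (58584523 to 58695676, plus strand) and Abcc4 on chromosome 14 (118482692 to 118706219, minus strand). Their longest coding lengths are 1276 codons for Abcb1a and 1325 for Abcc4, both full-length transporters, against 657 for the short Abcg2. An antisense gene, Gm42686, overlaps 10.1% of the exon length of Abcb1a. Whether strand was used in counting is not given in the sources used here, so any reads of that stretch cannot be assigned to one gene of the pair. Whether the stretch reaches the 3′ end that the kit tags was not examined.

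The family's share of all counts was lower in dura mater ECs as well. ABC genes held 0.548% of the counts in brain EC replicate 1 (95% Wilson interval 0.545 to 0.552) and 0.489% in replicate 2 (0.485 to 0.492), against 0.227% (0.225 to 0.230) and 0.225% (0.223 to 0.228) in the dura mater libraries. These intervals cover counting error only. The means were 0.519 ± 0.0422% and 0.226 ± 0.00138% (SD, n = 2), 2.29-fold apart and without overlap, although an exact permutation test of 2 against 2 libraries cannot go below p = 0.333. Abcb1a, Abcg2 and Abcc4 together made up 88.5 and 83.6% of the family's counts in the brain pair of libraries against 67.5 and 65.4% in the dura mater pair. The other 47 members together held 0.0633 and 0.0800% of the counts in brain ECs against 0.0738 and 0.0779% in dura mater ECs, so that their groups overlapped.

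**Figure D1:**
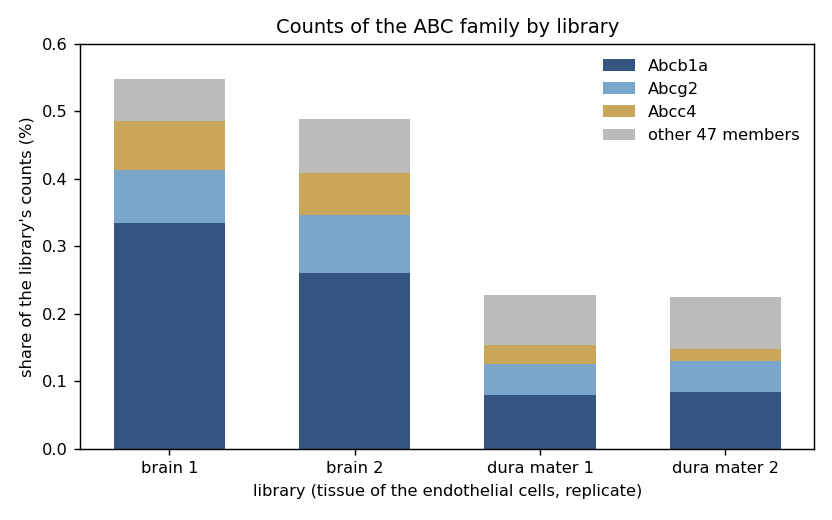
Share of each library's counts held by ABC family genes, in percent, stacked as Abcb1a, Abcg2, Abcc4 and the other 47 members, for 2 brain EC and 2 dura mater EC libraries. The full bars reach 0.548 and 0.489% in the brain and 0.227 and 0.225% in the dura mater, while the top segment of the other members stays between 0.0633 and 0.0800%.

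Ratios between the 3 pumps were then compared inside each library. Inside a library, Abcb1a had 4.25 and 3.0 counts for each count of Abcg2 in the brain and 1.74 and 1.85 in the dura mater, a mean ratio 2.02-fold higher in brain ECs without overlap. The ratio of Abcc4 to Abcg2 counts was 0.915 and 0.708 in the brain and 0.590 and 0.367 in the dura mater, also without overlap. The ratio of Abcb1a to Abcc4 counts was 4.65 and 4.23 against 2.94 and 5.05, and there the dura mater libraries lay on both sides of the brain libraries. Such ratios do not depend on the scaling of a library, and with 2 libraries a tissue none of them can reach an exact permutation p under 0.333.

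The pumps were also set against the endothelial content of each library. For each 100 counts of the 10 endothelial markers, there were 30.9 and 19.6 counts of Abcb1a in brain ECs against 8.96 and 7.05 in dura mater ECs, with means 3.15-fold apart. Abcc4 had 6.64 and 4.63 counts on this scale against 3.05 and 1.4, and Abcg2 had 7.26 and 6.54 against 5.16 and 3.81. All 3 pumps kept both brain libraries above both dura mater libraries on this scale. The share of counts held by the endothelial markers themselves overlapped between the tissues, at 1.08 and 1.33% against 0.895 and 1.20%, although 2 of the 10 markers, Esam and Ramp2, were lower in dura mater ECs at an unadjusted p under 0.05.

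**Figure D2:**
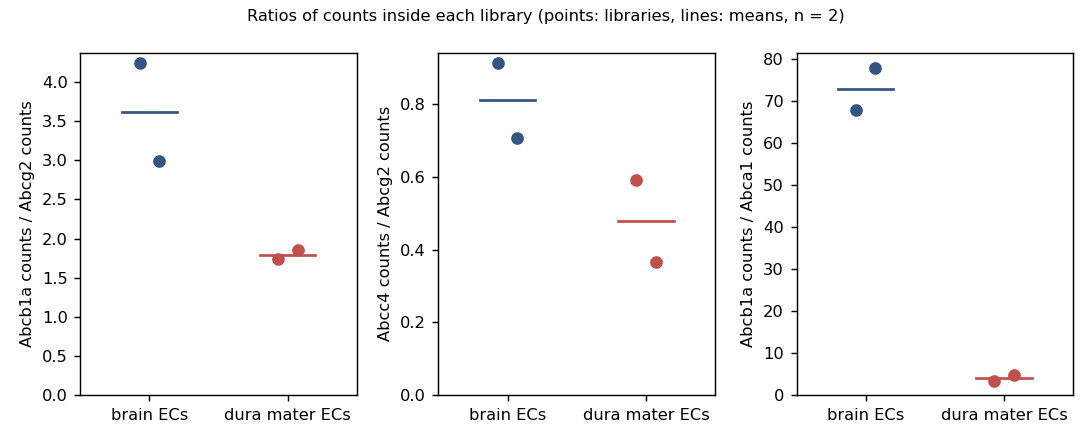
Ratios of counts inside each library for Abcb1a over Abcg2, Abcc4 over Abcg2 and Abcb1a over Abca1, with points for the 2 libraries of each tissue and lines for their means. Brain libraries lie above dura mater libraries in each panel, most widely for Abcb1a over Abca1 (67.8 and 77.7 against 3.26 and 4.73). That width follows from the levels of these genes, which differed in opposite directions, and is not a separate result.

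The remaining multidrug and organic anion pumps gave a mixed picture. Abcb1b, the second mouse gene for P-glycoprotein, had 0 counts in each library, which allows a level of up to 0.184 to 0.227 CPM per library (3 counts). It lies 49571 bases downstream of the end of Abcb1a on the same strand (chromosome 5, 8798147 to 8866315), and its coding length is the same 1276 codons. Their transcript ends were compared. In the last 500 bases of the annotated transcripts, 0 of 451 windows of 50 bases of Abcb1a occur in any other gene, whereas 134 of 831 windows of Abcb1b occur in Abcb1a.

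Abcc1, an exporter of glutathione conjugates and leukotriene C4, was the pump with the opposite direction. It had 1 and 3 counts in brain ECs against 361 and 316 counts in dura mater ECs, or 23.1 ± 5.35 CPM (SD, n = 2) in the latter. The groups did not overlap, and the ratio of summed counts was 158 (exact 95% interval for counting error 61.3 to 581), but the unadjusted p was 0.0754 and the adjusted p 0.502 (edgeR). DESeq2 gave an adjusted p of 0.0150, within a range of 0.0150 to 1.00 over 14 other settings. Abcc5, an exporter of cyclic nucleotides, stood at 39.1 and 170 CPM in brain ECs against 101 and 66.5 CPM in dura mater ECs. The dura mater libraries lay between the brain libraries, and the log2 fold change was -0.32 (SE 0.96, adjusted p 1.00, edgeR).

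Abcc6 had 939 counts in brain EC replicate 1 and 0 in the other 3 libraries, so it was not tested by edgeR, while DESeq2 called it lower in dura mater ECs on that library alone. Abcc10 had 9 counts in dura mater EC replicate 2 only. Abcc2, Abcc3 and Abcc12 had 0 counts in each library. Of the 11 genes of this list, 5 were tested, 4 of them lower and 1 higher in dura mater ECs with a median log2 fold change of -0.88, and 0 passed the adjusted threshold of edgeR.

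Among the exporters of sterols and phospholipids, Abca1 was at a higher level in dura mater ECs. Abca1 (chromosome 4, 53030787 to 53159895, minus strand) loads cholesterol and phospholipid onto apolipoproteins, and it stood at 49.3 and 35.0 CPM in brain ECs against 248 and 177 CPM in dura mater ECs. Both dura mater libraries lay above both brain libraries, with means of 213 ± 50.3 and 42.1 ± 10.1 CPM (SD, n = 2), 5.04-fold apart. The log2 fold change was 2.33 (SE 0.67), with an unadjusted p of 0.0126 and an adjusted p of 0.340 (edgeR). Over 15 other settings the adjusted p of Abca1 ran from 0.0335 to 0.784 and passed in 2, DESeq2 (0.0362) and the fit without brain EC replicate 1. For each 100 endothelial marker counts there were 0.455 and 0.252 counts of Abca1 in brain ECs against 2.75 and 1.49 in dura mater ECs. Fibroblast markers were higher in the same libraries, as given above, and their part in the level of Abca1 was not tested.

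The promoters of Abcc4 and Abca1 are shown because these members differed in opposite directions and their RefSeq start sites (GRCm38.p6) coincide with the GENCODE starts, beside another RefSeq start of Abcc4 that lies 29288 bases away and is not shown. Each line gives the 250 bases before the start, 5′ to 3′ on the gene's strand, for Abcc4 at chr14:118706220-118706469 (minus strand) and for Abca1 at chr4:53159896-53160145 (minus strand). Capitals mark a TATA box (TATAAA), GC boxes (GGGCGG) and E-boxes (CACGTG) found on either strand.
Abcc4: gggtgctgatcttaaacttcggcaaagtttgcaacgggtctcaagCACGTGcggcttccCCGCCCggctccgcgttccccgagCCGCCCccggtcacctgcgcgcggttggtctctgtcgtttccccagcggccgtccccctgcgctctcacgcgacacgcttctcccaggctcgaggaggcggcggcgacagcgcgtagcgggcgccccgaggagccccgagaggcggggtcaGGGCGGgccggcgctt
Abca1: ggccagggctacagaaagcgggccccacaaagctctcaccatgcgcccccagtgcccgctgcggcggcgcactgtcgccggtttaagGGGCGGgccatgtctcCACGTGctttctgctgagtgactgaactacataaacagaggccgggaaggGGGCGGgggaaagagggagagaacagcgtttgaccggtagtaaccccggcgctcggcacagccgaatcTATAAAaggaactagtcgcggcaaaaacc
Both windows hold GC boxes, 3 in Abcc4 and 2 in Abca1, and 1 E-box each, and the 61.6% GC of Abca1 compares with 72% in Abcc4. Only the Abca1 window has a TATA box, which begins 29 bases before the start. Of all 32851 RefSeq promoter windows of this length, 12.4% hold the TATA letters, 32.7% the GC box and 6.02% the E-box, and the median GC content is 52.4%. The CCAAT box (CCAAT, in 33.8% of windows), the letters CTTTGAT or CTTTGAA recognized by TCF/LEF factors (7.48%) and an ETS core (CCGGAA, 12%) were also searched and were not found in these windows. The motifs were chosen with the results known, and a match of letters is a description only. The RefSeq start of Abcb1a lies 92986 bases upstream of the GENCODE gene start and Abcg2 has 3 windows, and since 3′ tags do not show which start was used, neither is printed.

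Abca2, a lipid transporter of endosomes and lysosomes, stood at 150 and 105 CPM in brain ECs against 37.7 and 94.9 CPM in dura mater ECs. Abca3, which moves phospholipids into lamellar bodies, stood at 58.6 and 55.9 CPM in brain ECs against 30.8 and 29.4 CPM in dura mater ECs. Neither gene overlapped between the tissues, with log2 fold changes of -0.94 (SE 0.84) for Abca2 and -0.92 (SE 1.41) for Abca3 and adjusted p values of 0.944 and 1.00 (edgeR). The antisense gene D330041H03Rik overlaps 9.75% of the exon length of Abca3.

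Abcg1, which passes sterols on to lipoprotein particles, had 660 and 0 counts in the brain pair of libraries against 258 and 1384 in the dura mater pair. The replicates of each tissue differed more than the tissues did, and the log2 fold change of 1.19 (SE 2.72, adjusted p 1.00, edgeR) depended on single libraries. It passed the threshold without brain EC replicate 1 (adjusted p 0.0322, the lowest of 14 other settings that reached 1.00) and turned to -0.26 without dura mater EC replicate 2. Abca7 had 758 counts in brain EC replicate 2, 249 in dura mater EC replicate 2 and 0 in both other libraries. Abcb4, the phospholipid floppase next to Abcb1b, had 2 counts in dura mater EC replicate 1, and Abca12 had 1 count in dura mater EC replicate 2. Abca4, Abcb11, Abcg4, Abcg5 and Abcg8 had 0 counts throughout. Of 12 genes on this list, 5 were tested, 2 higher and 3 lower in dura mater ECs with a median log2 fold change of -0.92, and 0 passed the adjusted threshold.

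**Figure D3:**
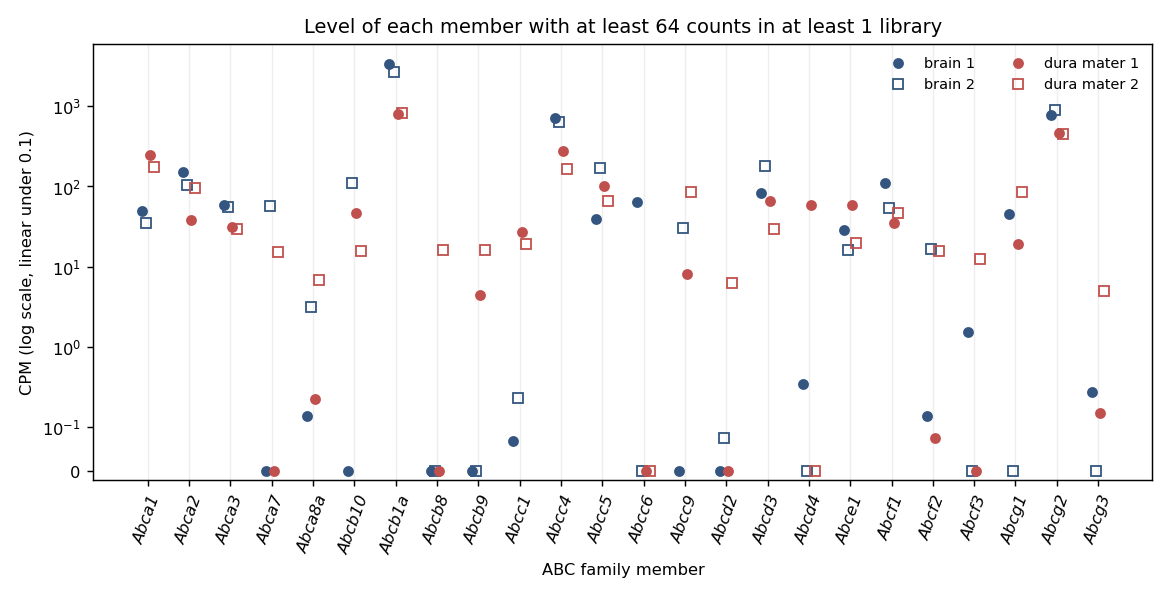
CPM in each library on a log axis (linear under 0.1) for every member with at least 64 counts in at least 1 library, ordered by symbol, with brain libraries in blue and dura mater libraries in red (replicate 1 filled circles, replicate 2 open squares). Abcb1a, Abcc4 and Abcg2 show both blue points above both red points and Abca1 the reverse, while members such as Abcg1, with 0 and 45.5 CPM in brain ECs, spread within a tissue.

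The short transporters of mitochondria and lysosomes were counted unevenly. Abcb9, a lysosomal peptide transporter, had 0 counts in both brain libraries against 59 and 261 counts in dura mater ECs. This is a level at least 47-fold higher, against a floor of 3 counts per library. The bound rests on replicates that differed, at 20.3-fold from dura mater EC replicate 1 alone and 73.7-fold from replicate 2 alone. Its unadjusted p was 0.0568 and its adjusted p 0.466 (edgeR). Abcb10, a mitochondrial member linked to heme synthesis, had 0 and 1481 counts in brain ECs against 633 and 259 in dura mater ECs. Its log2 fold change of -0.83 (SE 2.69, adjusted p 1.00, edgeR) turned to 7.87 without brain EC replicate 2. Of the exon length, 10.3% in Abcb10 and 2.89% in Abcb9 is shared with a gene on the other strand. Abcb8 had 262 counts in dura mater EC replicate 2 alone, and Abcb6 had 0 throughout. The 0 of Abcb6 cannot be read as absence of its transcript, since Gm29253 on the same strand overlaps 55.2% of its exon length and shares 437 of the 527 windows at its 3′ end (82.9%). No gene of this list passed the adjusted threshold of edgeR.

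Abcd3, which carries fatty acids into peroxisomes, stood at 82.5 and 180 CPM in brain ECs against 66.5 and 29.5 CPM in dura mater ECs. The groups did not overlap, with a log2 fold change of -1.45 (SE 0.92, unadjusted p 0.163, adjusted p 0.722, edgeR). It was the 1 tested gene of the 4 ABCD members. Abcd4, a lysosomal partner of vitamin B12 export, had 5 and 0 counts in brain ECs against 793 and 0 in dura mater ECs. Abcd2 had 0 and 1 counts against 0 and 101.

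Abcc9, the sulfonylurea receptor that forms potassium channels with Kcnj8 in mural cells of vessels, had 0 and 404 counts in brain ECs against 108 and 1384 in dura mater ECs. The tissues overlapped, with a log2 fold change of 1.60 (SE 2.93, adjusted p 1.00, edgeR) that turned to -0.93 without dura mater EC replicate 2. Kcnj8 had 0 counts in both brain libraries against 468 and 410 in dura mater ECs (unadjusted p 0.0325, adjusted p 0.466, edgeR). The pancreatic receptor Abcc8 and its partner Kcnj11 had 0 counts in each library. Mural cell markers summed to 765 and 1147 CPM in brain ECs against 1203 and 602 in dura mater ECs, and their part in the counts of Abcc9 was not tested.

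The 4 members that act in translation were all tested. Abce1, which recycles ribosomes, stood at 28.8 and 16.2 CPM in brain ECs against 59.4 and 19.6 CPM in dura mater ECs. Its groups overlapped, with a log2 fold change of 0.81 (SE 1.84, adjusted p 1.00, edgeR). Abcf1, a factor of translation initiation, stood at 109 and 53.3 CPM against 34.7 and 46.3 CPM, without overlap but with a log2 fold change of -1.0 (SE 1.12, adjusted p 0.996, edgeR). Abcf2 had 2 and 221 counts against 1 and 258, and Abcf3 had 22 and 0 against 0 and 205, so both were set by replicate. The list had 2 members higher and 2 lower, with a median log2 fold change of 0.36.

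The Abca5 to Abca9 cluster of chromosome 11 was barely counted. Abca8a, its 1 tested gene, had 2 and 41 counts in brain ECs against 3 and 110 in dura mater ECs. Abca9 had 37 counts in dura mater EC replicate 2, Abca5 had 1 count in dura mater EC replicate 1, and Abca6 and Abca8b had 0. Outside these lists, Abcg3 had 4 and 0 counts against 2 and 82, and Abca13, Abca14, Abca15, Abca16, Abca17 and Abcb5 had 0.

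Across the family, 20 of 50 members passed the filter on low counts (40%, beside 40.1% of all symbols), 13 were counted in all 4 libraries and 19 in none (38%, beside 41.3%). By edgeR, 0 of the 20 tested members had an adjusted p under 0.05, where 57 of all 9347 tested genes did (0.610%). At an unadjusted p under 0.05, 3 members were lower in dura mater ECs (Abcb1a, Abcc4 and Abcg2), beside 2.97% of all tested genes, and 1 was higher (Abca1), beside 7.04%. DESeq2 called 5 of 22 members (Abca1, Abcb1a, Abcc1, Abcc4 and Abcc6), beside 12.0% of the 10483 genes it tested, and limma-voom called Abcb1a alone. Both brain libraries lay above both dura mater libraries in 7 tested members (Abcb1a, Abcc4, Abcg2, Abca2, Abca3, Abcd3 and Abcf1), beside 16.9% of tested genes, and below both in 3 (Abca1, Abcb9 and Abcc1), beside 26.2%. The median log2 fold change was -0.20 over the 20 members and -0.01 over all tested genes, with 9 members higher and 11 lower in dura mater ECs, or 45% higher beside 49.8%. That median is the same with Abcb9 at its lower bound.

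**Figure D4:**
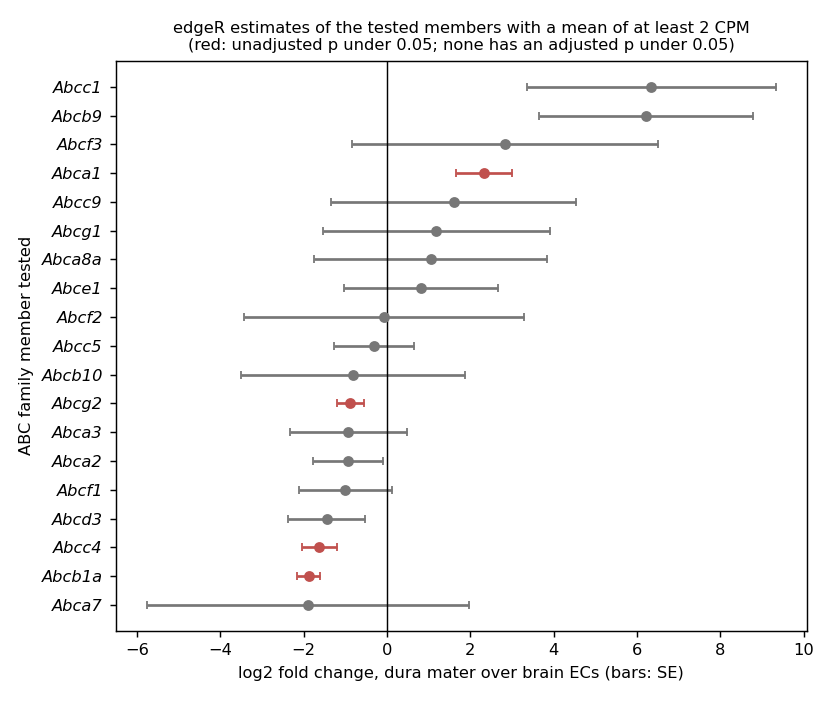
Log2 fold change of dura mater over brain ECs from edgeR for the 19 tested members with a mean of at least 2 CPM over the 4 libraries, with SE as bars, red where the unadjusted p was under 0.05. The red members are Abcb1a (-1.88), Abcc4 (-1.63), Abcg2 (-0.88) and Abca1 (2.33). The bars of Abcb9 and Abcc1, nearly uncounted in the brain, are wide (SE 2.56 and 2.98). Those of Abca7, Abcf3 and Abcf2 are wider (SE 3.87, 3.67 and 3.36).

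Genes that work with or on ABC transporters were described from lists chosen with these data known. Tap1 and Tap2, the ABC pair that loads peptides for antigen presentation and whose symbols lie outside the rule, had 956 and 3 and 1228 and 133 counts in brain ECs. In dura mater ECs they had 1414 and 1020 and 3248 and 5760 counts. Tap2 did not overlap between the tissues (log2 fold change 2.65, unadjusted p 0.0392, adjusted p 0.466, edgeR), whereas Tap1 was set by 1 low brain library. The chloride channel Cftr had 0 counts.

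Of 18 genes listed for the regulation of ABC genes, 13 were tested, 6 higher and 7 lower with a median log2 fold change of -0.22. The adjusted threshold was passed by 1 of them, beside 0.610% of all tested genes. This was Mylip, the ubiquitin ligase induced by liver X receptors (LXR), the sterol sensors that also induce Abca1. Mylip was placed on this list although LXR induces it, and no other gene of the list passed. Mylip had 1 count in each brain library and 2627 and 3035 counts in dura mater ECs (adjusted p 0.0248, edgeR), but without dura mater EC replicate 1 or by limma-voom none of the listed genes passed. Of the LXR genes, Nr1h2 had 1366 and 1700 counts in brain ECs against 1315 and 712 in dura mater ECs. Nr1h3 had 0 and 1 counts against 0 and 126. Activity of LXR was not measured, and its part in the levels of Mylip and Abca1 was not tested. Pparg, a nuclear receptor of lipid metabolism, had 1 and 0 counts against 355 and 549 (unadjusted p 0.0421, adjusted p 0.466, edgeR).

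Other genes of the regulator list lay higher in both brain libraries, and 3 of these were picked out after their values were seen. Ppard, a nuclear receptor of fatty acid metabolism, had 1406 and 814 counts in brain ECs against 30 and 137 in those of the dura mater, with a log2 fold change of -3.86 (SE 1.72) and an adjusted p of 0.476 by edgeR and 0.0162 by DESeq2. Lef1, a transcription factor of Wnt signaling, had 2378 and 1253 counts against 2 and 409 (log2 fold change -3.35, SE 1.98, adjusted p 0.666, edgeR), and it passed the threshold without brain EC replicate 2. Srebf2, a regulator of cholesterol synthesis, had 612 and 684 counts against 1 and 82 (log2 fold change -4.13, SE 2.69, adjusted p 0.744, edgeR).

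Of 12 partners of ABC transporters, 11 were tested, 10 higher and 1 lower in dura mater ECs with a median log2 fold change of 1.37, and 0 passed the adjusted threshold. At an unadjusted p under 0.05, 6 were higher, beside 7.04% of all tested genes. These were Kcnj8, the apolipoproteins Apoe and Apoa1, which accept lipid from Abca1, the membrane linker Msn, the caveolar protein Cav1 and the nucleoside transporter Slc29a1. Apoe had 6454 and 4645 counts in brain ECs against 10524 and 13646 in those of the dura mater (log2 fold change 1.02), and Apoa1 had 0 and 0 against 488 and 115. Msn had 2673 and 1855 counts against 7288 and 8039 (log2 fold change 1.67), and Cav1 had 2148 and 2666 against 7209 and 8711 (log2 fold change 1.61). Slc29a1 had 536 and 714 counts against 2083 and 3359 (log2 fold change 1.99).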

How the data were processed

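The authors deposited raw counts, 1 table of whole-number counts per library, with 23282 symbols each, unscaled and unfiltered. The methods name TopHat and cufflinks, while the submitters' processing notes list Bowtie2, edgeR and mm10. The counting step, annotation, use of strand and use of molecular identifiers are not given in the sources used here. Groups came from the sample labels. Counts were tested with edgeR 4.0.16 (quasi-likelihood, TMM scaling, filterByExpr, tissue as the only term, two-sided) in R 4.3.3, with Benjamini-Hochberg adjustment over all 9347 genes tested. This stands in for cufflinks, which needs the alignments. CPM used TMM-adjusted library sizes, log2 fold changes a prior count of 2, and the SE was derived from the F statistic. CPM is not divided by transcript length, and levels were not ranked between genes. Scripts were tested on simulated data, where a pass was required only at a spread far below that of these libraries. Of the symbols, 35 stood on 79 lines, none of them in the family. Alternatives used DESeq2 1.42.0, limma 3.58.1 (voom), other scalings and filters, thinning, a prior count of 0.5 and each library left out.

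Members given in full were Abcb1a, Abcg2 and Abcc4, those with an adjusted or unadjusted p under 0.05, those with a mean of at least 20 CPM, and Abcb1b, Abcc1, Abcc5, Abcc9, Abca1 and Abcg1. Related genes were named at an unadjusted p under 0.05 (at most 6 a list), beside Tap1, Tap2, Cftr and Kcnj8. Others, such as Abcb9, Abcc6, Nr1h2, Nr1h3, Nfe2l2, Rxrb, Ppard, Lef1 and Srebf2, were chosen after their values were seen. Members and lists were chosen with earlier results of these data known. Gene positions are from GENCODE M21, matched by symbol for all 50 members, and promoters from RefSeq, matched for 38. A few members and markers are not reported here by name.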

Additional observations from a re-analysis of the deposited data

How the results depend on the processing

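The family count of 0 and the counts over all genes (57) and the related lists (1) depended on the processing, and the cause was not tested. DESeq2 called 5 members, 1257 genes and 7 related genes. The newer edgeR dispersion estimate called 2, 305 and 2, and no filter on low counts called 2, 326 and 2, with Abcb1a and Abcc4 as the members in both. At least 10 counts in every library gave 1, 141 and 0, among 10 members tested, and limma-voom gave 1, 80 and 0. An adjusted p under 0.1 gave 1 member, Abcb1a, as against 106 genes (1.13%). RLE, upper-quartile and library-size scaling and thinning to 13518973 counts left the family at 0. Leaving out each library in turn gave 0 to 4 members, 80 to 740 genes and 0 to 5 related genes, with the lone library assumed to vary like the other group. The 4 were Abca1, Abcb1a, Abcc4 and Abcg1 without brain EC replicate 1, 3 passed without brain EC replicate 2 (Abcb1a, Abcc4, Abcc6), and 0 without either dura mater library. With the replicate block, 1 member (Abcb1a), 224 genes and 1 related gene passed. Whether same-numbered libraries share mice or a batch is not stated. Their deviations from the tissue mean correlated at -0.02, which cannot decide it with replicates this variable. The median log2 fold change of the members ran from -0.97 to 1.95, with 0.78 under no filter. Over 206 values of 14 named members, 180 kept direction and side of the threshold, 17 newly passed and 9 turned direction. The turned log2 fold changes were 0.028 (limma-voom) and 0.0061 (replicate block) for Abcc5 and 3.66 and 2.62 under the same settings for Abcb10. The others turned when a library was left out, where log2 fold changes ran from -1.06 to 1.04 for Abcc5 and -1.95 to 7.87 for Abcb10 (turned without brain EC replicate 2), from -0.34 to 1.38 for Abce1 (without dura mater EC replicate 1), and from -0.26 to 8.51 for Abcg1 and -0.93 to 8.37 for Abcc9 (without dura mater EC replicate 2). With 2 libraries a tissue and a coefficient of variation of 1.39, members counted in 1 replicate only could not be compared between tissues.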
